A study of Mus musculus with 16 samples.

Results

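The day 0 soleus profile rested on 4 of the 16 arrays of the series, 1 array for each of the 4 day 0 RNA samples, all on the same slide (slide 2). The rule that chose them reads labels and no measured value: they are the arrays of day 0 on the slide that carried every day 0 RNA sample. The series followed the soleus, a hindlimb muscle, of male mice over 14 days in which oxygen was brought down gradually to 10%, with sampling at days 0, 3, 7 and 14. All 16 arrays are labelled as hypoxia in the treatment field, day 0 included. Day 0 is the start of the protocol, and strain, age and whether each RNA sample came from its own mouse are not given in the labels. The spread between RNA samples may therefore hold both animal and technical parts. The 4 day 14 arrays share slide 2 with day 0. RNA samples 1 and 2 of day 0 were also hybridised on slide 1, which gave a technical repeat of that pair. RNA samples 3 and 4 have no such repeat.

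The soleus is the classic slow postural muscle. Its type I fibres contract with the slow myosin heavy chain Myh7, keep calcium cycling through the slow pump Atp2a2, and burn fuel mainly in mitochondria with oxygen buffered by myoglobin. In mice it also holds many fast oxidative IIa fibres, which carry Myh2, while the IIx and IIb myosins Myh1 and Myh4 mark faster and more glycolytic fibres. Whole-muscle RNA also contains vessels, nerve, connective tissue, tendon ends and blood cells. In bulk RNA, more cells of a type and more RNA per cell cannot be told apart.

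The adult myosin heavy chain genes mark the fibre types and differed in how even they were between RNA samples (below), so the 250 bases before their starts are shown from RefSeq (GRCm38.p6). Capitals mark TATAAA, the core of a TATA box. They also mark CATTCC, the MCAT core bound by TEAD factors. A MEF2 consensus that begins with CTA and ends with TAG, with A or T between, was searched too. That form is not in these windows, and forms with other first or last bases were not searched. In the Myh1 and Myh4 windows, ttaTTTATAg differs from it by the first base only. Each motif was searched on both strands, and a MEF2 site can contain TATAAA. Myh7 has 2 annotated starts, and the window of the outer start is printed.

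Myh7, chr14:54994627-54994876, minus strand: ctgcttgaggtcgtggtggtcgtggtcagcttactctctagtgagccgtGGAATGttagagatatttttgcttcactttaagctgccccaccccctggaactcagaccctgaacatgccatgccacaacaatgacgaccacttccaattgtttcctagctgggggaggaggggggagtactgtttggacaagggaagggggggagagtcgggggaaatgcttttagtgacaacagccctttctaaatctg

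Myh2, chr11:67170777-67171026, plus strand: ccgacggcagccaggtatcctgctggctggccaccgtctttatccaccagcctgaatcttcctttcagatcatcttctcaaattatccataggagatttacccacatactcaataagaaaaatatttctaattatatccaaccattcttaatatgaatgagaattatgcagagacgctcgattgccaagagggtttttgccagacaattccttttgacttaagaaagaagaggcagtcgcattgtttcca

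Myh1, chr11:67199852-67200101, plus strand: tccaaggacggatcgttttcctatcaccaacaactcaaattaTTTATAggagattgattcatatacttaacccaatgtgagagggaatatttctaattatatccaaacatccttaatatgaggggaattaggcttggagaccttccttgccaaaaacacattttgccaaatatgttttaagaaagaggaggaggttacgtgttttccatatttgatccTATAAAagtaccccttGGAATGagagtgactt

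Myh4, chr11:67237562-67237811, plus strand: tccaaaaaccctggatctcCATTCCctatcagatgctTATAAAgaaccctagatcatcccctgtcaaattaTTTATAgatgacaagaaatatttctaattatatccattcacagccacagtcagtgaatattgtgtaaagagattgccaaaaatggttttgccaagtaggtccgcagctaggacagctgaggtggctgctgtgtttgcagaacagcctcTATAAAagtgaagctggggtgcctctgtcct

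TATAAA was found 3 times in the Myh4 window and 2 times in the Myh1 window, and the copies nearest the starts began 31 and 32 bases before them. CATTCC occurred 1 time each in the printed Myh7 window and in the Myh1 and Myh4 windows, but not in the window of the other Myh7 start. Neither occurred in the Myh2 window. Over the 84 genes of the contractile lists, 60 had an entry, with 71 windows. The MEF2 consensus was in 5 of these (7.0%), against 167 of all 32851 windows (0.5%). The consensus was taken up after a looser pattern, which allowed any base at its middle positions, had been searched and its result seen; that pattern was in 11.3% of the contractile windows, 3.2% of all windows and 4.2% of those of the 200 genes with the brightest probes. CATTCC was in 21.1% against 12.6%, and TATAAA in 18.3% against 12.4%. The 200 genes with the brightest probes had 189 windows, of which 1.6% held the MEF2 consensus, 13.2% CATTCC and 10.1% TATAAA. The contractile windows thus held each motif more often than all windows did, with no test made, and a match is a description of letters only.

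Levels are log2 intensities after subtraction of the array's own 75th percentile, so 0 is the brightness that 75% of the non-control spots did not exceed. That percentile was 67.1 to 77.0 intensity units on the 4 arrays, and 39.4 to 42.9% of non-control spots were well above background, the scanner software's own mark for detection. On slide 1 the same RNA samples 1 and 2 gave percentiles of 271 and 218 and 54.1% and 51.2% of spots above background. Of 20963 named genes measured, 11051 (52.7%) were well above background on all 4 arrays and 8218 (39.2%) on none. The other genes were detected on 1 (664), 2 (471) or 3 (559) arrays. Detected genes below means the 11051. Their median level was 1.42, with 25% below -0.05 and 5% above 6.0. A level depends on the probe as well as on the transcript, so the order of genes is an order of probe brightness and not of transcript number.

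Of the 25 genes with the brightest probes, 11 were in the contractile lists, 3 in the energy lists and 1, Mb, in the oxygen-binding list, while 10 were in no list, among them Slc25a4, Glrx2, Ttc38, Exosc2 and Milr1. Tnnc2, the calcium-binding troponin C of fast fibres, read 11.44, 11.37, 11.28 and 11.30 in RNA samples 1 to 4 (mean 11.35 ± 0.07, SD, n = 4). Aldoa, the muscle aldolase of glycolysis, read 11.42, 11.38, 11.28 and 11.32 (11.35 ± 0.06). The ranges of these genes overlap, so they hold no order between them. Myl3, the slow-fibre and ventricular essential myosin light chain, read 11.14, 11.06, 11.04 and 11.02 (11.06 ± 0.05). Acta1, skeletal alpha-actin, read 11.06, 11.07, 10.90 and 11.13 (11.04 ± 0.10). Tcap, the titin cap of the Z-disc, read 11.05, 11.00, 10.91 and 11.05 (11.00 ± 0.07). Slc25a4, the mitochondrial ADP/ATP carrier of muscle, stood at 10.84 ± 0.06 and Cox6a2, the striated-muscle cytochrome oxidase subunit, at 10.39 ± 0.08. Mb, myoglobin, read 10.46, 10.50, 10.25 and 10.43 (10.41 ± 0.11). The 25 brightest genes ended with Myl2, the slow regulatory light chain, at 10.23 ± 0.09. Within this set the SD had a median of 0.06, against 0.14 over all detected genes.

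**Figure D1:**
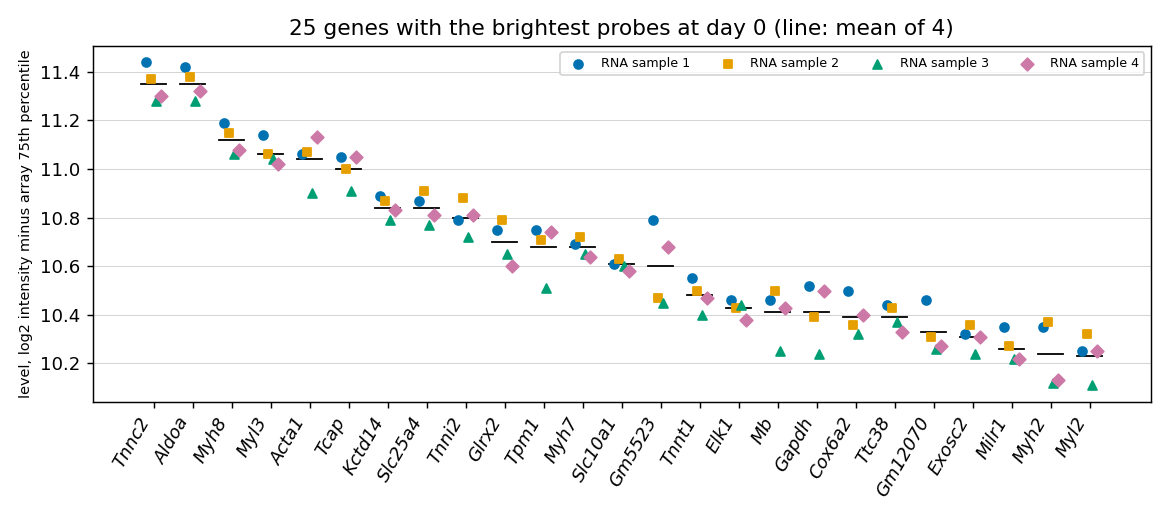
Level (log2 intensity minus the array's 75th percentile) of the 25 genes with the brightest probes at day 0, ordered by mean; each symbol is 1 RNA sample and the line is the mean of 4. The axis starts above 0; all values lie between 10.11 and 11.44 and neighbouring genes overlap.

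Not every bright probe spoke for its gene. Of the 25 brightest genes, 12 had more than 1 probe, and in 10 of these the dimmest probe lay over 3 log2 units below the brightest. Over all detected genes this held for 1541 of 3790 genes with more than 1 probe (40.7%). For Kctd14, a potassium-channel-domain protein, the brightest probe stood at 10.84 and the others at -2.86 and -3.81, not well above background on any array. The same held for Slc10a1, the bile acid transporter of liver (10.61 and -4.23), and for Elk1, a transcription factor (10.43 and -2.94). For Myh8, the neonatal myosin heavy chain, the probes read 11.12 and 5.34, both detected on all 4 arrays. With only genes of 1 probe, or with probes within 3 log2 units of each other, 15 of the 25 stayed. Those that entered began with Tnnt3, Cryab and Chchd10, at 10.21 ± 0.12, 10.20 ± 0.19 and 10.04 ± 0.17.

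Slow-fibre genes had the smallest median SD of the 5 contractile lists. All but 1 of 17 slow contractile and calcium genes were detected, 8 of them among the 200 brightest, with a median level of 7.65 and a median SD of 0.10. Myh7 read 10.69, 10.72, 10.65 and 10.64 (10.68 ± 0.04). Myl2 read 10.25, 10.32, 10.11 and 10.25, and Tnnt1, slow troponin T, read 10.55, 10.50, 10.40 and 10.47. Tnni1 and Tnnc1, slow troponins I and C, stood at 7.36 ± 0.11 and 7.37 ± 0.08. Atp2a2, the slow calcium pump, stood at 7.92 ± 0.05. Sln, sarcolipin, a small inhibitor of the calcium pump, was the widest of the list at 5.78, 5.26, 6.20 and 5.22 (5.62 ± 0.47). Pln, phospholamban, a related inhibitor, was not well above background on any array.

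Fast-fibre genes were detected without exception, all 16 of them, at a median level of 6.58 and a median SD of 0.18. Their spread was uneven. Myh2, the IIa myosin, read 10.35, 10.37, 10.12 and 10.13 (10.24 ± 0.14), and Tnni2 and Tnnt3, fast troponins I and T, stood at 10.80 ± 0.06 and 10.21 ± 0.12. Myh1, the IIx myosin, read 8.91, 8.0, 7.84 and 9.28 (8.51 ± 0.70), with RNA samples 1 and 4 above the others. Myh4, the IIb myosin, read 5.49, 3.13, 7.19 and 3.12 (4.73 ± 1.98), which is a 16.7-fold range, with RNA sample 3 highest and RNA samples 2 and 4 lowest. Myh1 and Myh4 therefore did not follow the same order of samples. Mybpc2, fast myosin-binding protein C, read 5.17, 3.40, 3.57 and 4.79 and Actn3, the fast-fibre alpha-actinin, 4.66, 2.72, 3.64 and 3.16. Pvalb, the calcium buffer parvalbumin, read 6.87, 5.65, 6.15 and 5.61. RNA sample 1 was highest for Mybpc2, Actn3 and Pvalb. On slide 1 the same RNA samples 1 and 2 read 5.27 and 2.81 for Myh4, 5.68 and 3.82 for Mybpc2, 5.20 and 3.37 for Actn3, and 6.97 and 5.74 for Pvalb. The excess of RNA sample 1 over 2 was thus seen again for each of these genes on the other slide.

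**Figure D2:**
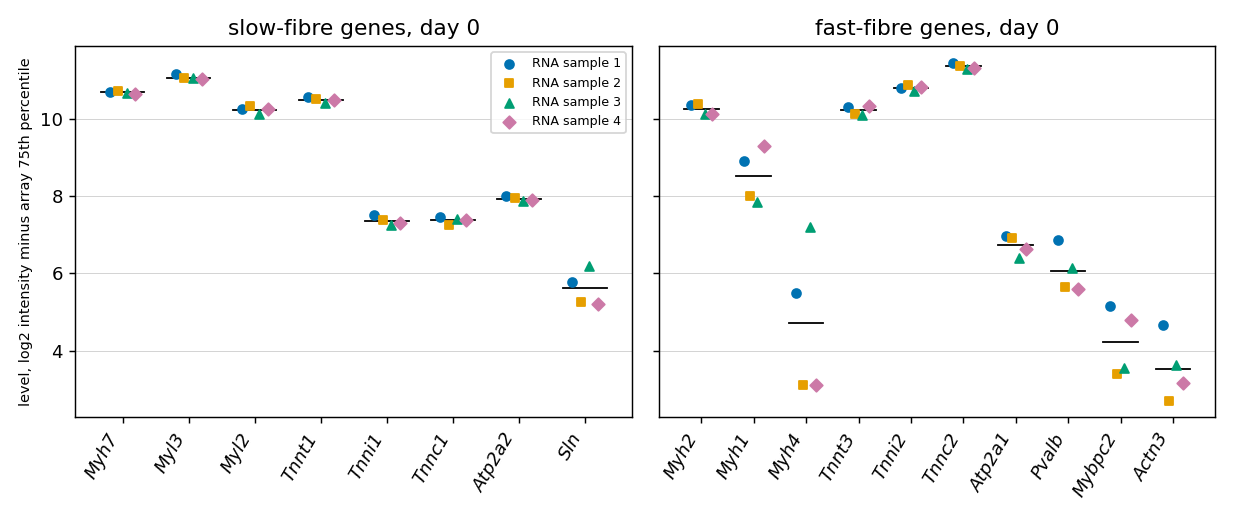
Day 0 level (log2 intensity minus the array's 75th percentile) of slow-fibre genes, left, and fast-fibre genes, right; each symbol is 1 RNA sample and the line is the mean of 4. The slow genes other than Sln keep within 0.26 log2 units, while Myh4 spans 4.06.

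Sarcomere genes shared by all fibres were detected in 29 of 29 cases, 11 among the 200 brightest, at a median of 7.13. Excitation-contraction genes were detected in 16 of 16 at a median of 5.08. Cacna1s, the voltage sensor of the T-tubule, stood at 8.61 ± 0.07. Among the 6 embryonic and neonatal genes Myh3, the embryonic myosin, read 2.55, 3.04, 2.75 and 1.87, and Myl4, the embryonic light chain, 3.89, 3.47, 4.12 and 3.13, both lowest in RNA sample 4.

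Genes of oxidative metabolism were detected throughout, as were those of several other lists such as shared sarcomere, glycolysis and ribosomal protein genes. All 65 measured respiratory chain and ATP synthase genes were detected, 36 of them among the 200 brightest, at a median level of 8.03 against 1.42 over all detected genes and a median SD of 0.13. Atp5b, the catalytic beta subunit of ATP synthase, stood at 9.81 ± 0.09. All 20 genes of the citric acid cycle and pyruvate entry were detected at a median of 6.86, with Mdh2, malate dehydrogenase, at 9.46 ± 0.09. Fatty acid uptake and oxidation gave 26 of 26, median 5.58, with Fabp3, the muscle fatty-acid binding protein, at 9.73 ± 0.09. Ucp3, a mitochondrial carrier that rises in fasting, was the least even of them at 1.08, 0.60, 1.46 and 1.96. Glycolysis gave 17 of 17 at a median of 7.89, 10 of them among the 200 brightest. Ckm, cytosolic muscle creatine kinase, read 8.87, 8.73, 8.45 and 8.61, and Ckmt2, its mitochondrial partner, 9.80, 9.82, 9.48 and 10.01. Pygm, muscle glycogen phosphorylase, stood at 7.75 ± 0.20. Cytosolic ribosomal proteins gave 51 of 51 at a median of 7.58, with 24 among the 200 brightest.

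Oxygen-handling genes beside Mb were led by Car3, carbonic anhydrase 3, a cytosolic enzyme of slow fibres, at 7.74, 7.74, 7.92 and 7.72 (7.78 ± 0.09). Of the 21 genes of the hypoxia-inducible factor system 20 were detected before oxygen was lowered, at a median of 1.66. Hif1a read -0.18, -0.33, -0.33 and -0.24, and Epas1, the second HIF alpha subunit, 6.55, 6.67, 6.47 and 6.76. Vegfa, the main angiogenic ligand, read 4.49, 4.67, 4.43 and 4.69. Bnip3, a mitophagy receptor and HIF target, stood at 7.73 ± 0.15. These are the brightest probes. Other probes, also detected on all 4 arrays, stood at 3.57 and 1.87 for Epas1, 3.29 for Vegfa, and 6.95 and 1.55 for Bnip3. With the brightest probe, Hif1a, Epas1, Vegfa and Bnip3 each kept their SD at or below 0.15. Ddit4, an mTORC1 inhibitor induced by hypoxia and by glucocorticoids, varied more, at 3.29, 2.44, 2.95 and 4.10.

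Regulators were detected at lower brightness. Of 26 myogenic and fibre-type transcription factors 23 were detected, at a median of 2.70. Vgll2, a TEAD cofactor of slow muscle, stood at 6.78 ± 0.23, Esrra, the oestrogen-related receptor of mitochondrial genes, at 6.51 ± 0.11, and Ppargc1a, the coactivator PGC-1 alpha, read 3.03, 2.57, 2.53 and 3.06. Mstn, the growth inhibitor myostatin, was not well above background on any array. Trim63, the atrophy ubiquitin ligase MuRF1, read 4.84, 4.37, 4.26 and 4.91.

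The tissue label was checked against position and cell type genes. Tbx4, the hindlimb T-box gene, was detected on all 4 arrays at -0.29 ± 0.13, and Tbx5, its forelimb counterpart, on none. Pitx1, another hindlimb gene, was detected on 2. Of the 5 genes of the male check, Eif2s3y and Ddx3y were detected on all 4 arrays, Uty on 1, and Kdm5d, also Y-linked, on none. Xist, expressed from the inactive X of females, was detected on none. Of the liver list, Alb, Apoa1 and Ttr were among 7 of 13 genes detected on no array, while 5 were detected on all 4: Trf at 3.29 ± 0.13, Cyp2e1 at 2.69 ± 0.17, Apoa2 at 2.38 ± 0.10, Mup1 at -0.69 ± 0.39 and Mup2 at -1.08 ± 0.30 (the Mup genes are near-identical copies that a probe may not separate). The heart list had 7 of 10 at that level, Nppa, Tnni3 and Myl7 among them, and its other 3, Myh6, Tnnt2 and Gja5, at 2.81 ± 0.27, 1.61 ± 0.37 and -0.32 ± 0.30. The neuron list had 7 of 10 on no array, Gad1 and Slc17a7 among them, and 2 on all 4, Camk2a at -0.01 ± 0.08 and Snap25. Snap25, a synaptic vesicle fusion protein, read 6.28, 6.05, 6.16 and 5.95. Krt1, Krt15, Dsg3 and Krtdap of the keratinocyte list were detected on no array. Its other genes included 5 of 10 detected on all 4 arrays: Trp63 at 4.05 ± 0.05, Sbsn at 0.02 ± 0.12, Krt10 at -0.30 ± 0.07, and Krt14 and Krt5 at -1.73 ± 0.17 and -1.76 ± 0.23. Apoa2, Gja5, Trp63 and Krt5 each had another probe that was detected on no array, at -4.3, -3.7, -4.38 and -3.72. Detection of these genes therefore rests on the brighter probe alone.

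Gene lists of other cells of the muscle differed in the share detected, read against 52.7% of all measured genes. Their median levels depend on the probes and do not rank the cell types. All 20 endothelial genes were detected at a median of 3.26, led by Fabp4, a fatty-acid binding protein of capillaries and fat, at 7.16 ± 0.15. Pericyte and smooth muscle genes gave 14 of 15 at 2.83, matrix and fibroblast genes 22 of 22 at 3.93, satellite cell genes 11 of 13 at 0.78 and synapse genes 11 of 12 at 2.48. Macrophage genes gave 15 of 17 at 0.49, neutrophil genes 5 of 11, and lymphocyte and antigen presentation genes 8 of 17. The neutrophil and lymphocyte shares, 45.5% and 47.1%, lie below that of all genes. Of the red blood cell genes 8 of 12 were detected, with Hba-a2, alpha-globin, at 9.15, 9.45, 9.76 and 9.17.

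Between the RNA samples the profile was even. The SD over the 4 samples had a median of 0.141 over the 11051 detected genes, a factor of 1.10, with the 5th percentile at 0.048 and the 95th at 0.377. It was 0.116 in the brighter part of the genes above the median level and 0.176 in the dimmer part. A total of 204 genes (1.85%) had an SD above 0.5 and 11 had one above 1. Array pairs correlated at 0.990 to 0.994 across detected genes, which are not independent replicates. Over the 10398 genes detected on all 8 arrays of slide 2, the median SD was 0.137 at day 0 and 0.137 at day 14. RNA sample 4 deviated most, with a median absolute deviation of 0.117 against 0.080, 0.086 and 0.096 in RNA samples 1 to 3. Without it the median SD was 0.118.

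The genes with the largest SD were picked by that value, so their slide 2 levels are a description. Cyp26b1, which degrades retinoic acid, read -1.33, 3.29, 2.16 and 3.76 (SD 2.30), low in RNA sample 1 alone. Mt2, a metallothionein that binds zinc and copper, read 6.12, 3.20, 4.71 and 4.56, high in RNA sample 1 and low in 2. Egr1, an immediate early transcription factor, read 1.10, 3.08, 1.47 and 0.53, high in RNA sample 2. S100a8 and S100a9, the paired calcium-binding proteins of neutrophils, read 0.32, -1.09, -1.58 and 0.95, and 2.42, 1.19, 0.91 and 3.36. Both were higher in RNA samples 1 and 4. Col22a1, a collagen of the myotendinous junction, read 4.13, 4.41, 4.88 and 2.49, and Timp1, a metalloproteinase inhibitor, 2.73, 2.93, 3.24 and 1.10. Ankrd1, a stretch-responsive sarcomere protein, read 1.91, 1.71, 1.45 and -0.28. RNA sample 4 was lowest for these 3 genes. It was the lowest sample in 56 of the 100 genes with the largest SD, against 21.4% of all detected genes, and RNA sample 3 was the highest in 52 of the 100, against 18.9% of all.

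**Figure D3:**
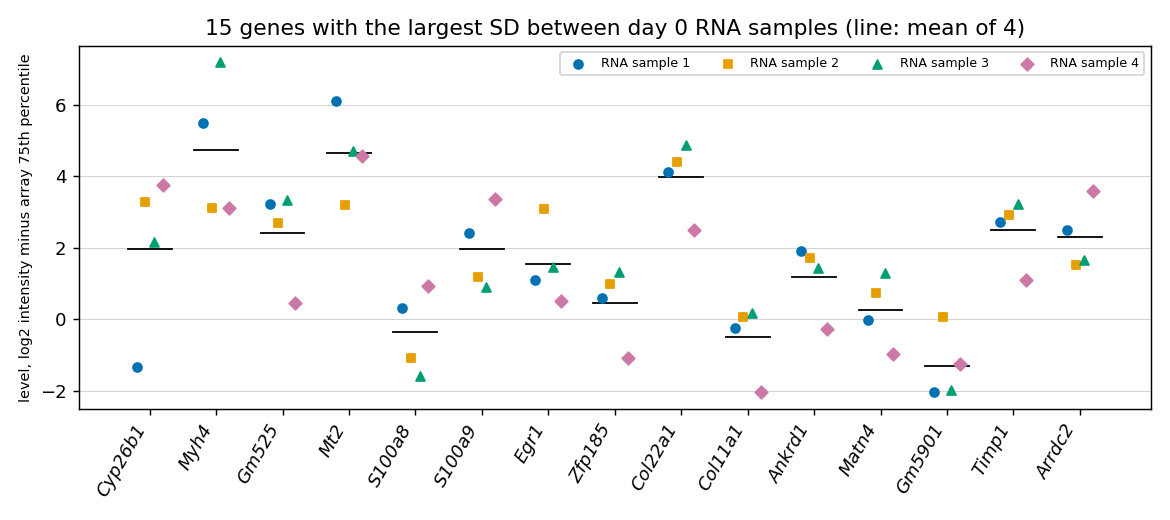
Level (log2 intensity minus the array's 75th percentile) of the 15 genes with the largest SD between the day 0 RNA samples; each symbol is 1 RNA sample and the line is the mean of 4. RNA sample 1 is far below the others for Cyp26b1, and RNA sample 4 is the lowest for Gm525, Zfp185, Col22a1, Col11a1, Ankrd1, Matn4 and Timp1.

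The slide 1 arrays of RNA samples 1 and 2 were not used to pick these genes. On them Cyp26b1 read -0.89 and 3.11, Mt2 5.94 and 3.00, and Egr1 0.96 and 2.80. Of 71 genes that differed between RNA samples 1 and 2 by at least 1 log2 unit on slide 2, 70 differed in the same direction on slide 1, and 67 by at least 50% as much. Gm5901 was an exception, at -2.02 and 0.07 on slide 2 and -2.01 and -1.77 on slide 1. Over all 11012 genes detected on the 6 day 0 arrays, the differences correlated at 0.505 between slides, and 62.5% had the same sign. Of the 10941 genes that differed by less than 1 on slide 2, 62.3% had the same sign on slide 1, and 46.4% differed that way by at least 50% as much. The large differences of this pair were thus mostly measured again from the same RNA, with no test made. Small differences can change sign with little noise, so their lower share is no finding about these genes.

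**Figure D4:**
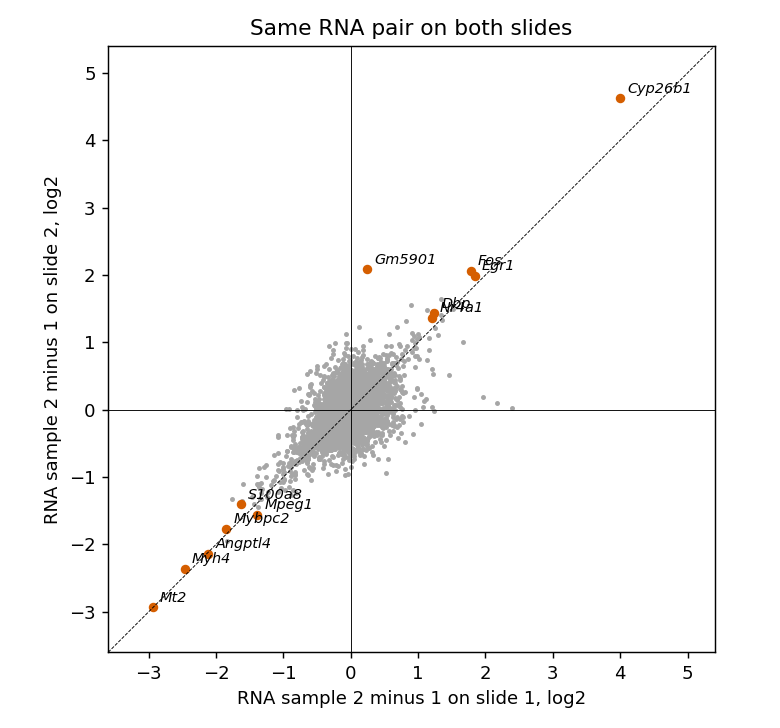
RNA sample 2 minus RNA sample 1 (log2) on slide 1 (horizontal) and on slide 2 (vertical) for the 11012 genes detected on all 6 day 0 arrays; orange points are named and the dashed line marks equal differences. Cyp26b1, Mt2 and Myh4 lie near that line, and Gm5901 lies far from it.

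The RNA samples were then compared by limma's moderated F-test on the 6 day 0 arrays with slide as a covariate, in which the error comes from the repeated pair and is technical, with 1 residual degree of freedom. Of 17037 features, 557 (3.27%) passed at an adjusted p under 0.05 after Benjamini-Hochberg adjustment. The count is not stable: it was 1 after quantile normalization and 0 with a looser detection filter, and 4100 with an intensity trend. Of the 25 brightest genes 0 passed, and of the 200 brightest 3. Unadjusted p-values under 0.05 were seen for 3988 features. The list counts that follow are read against 3.27%. The lists were chosen with earlier results of these data known, so a share above 3.27% is a description only. The values without RNA sample 4, whose difference no slide 1 array repeats, stand beside the tendon and matrix lists. Without it, calls also went from 4 to 0 of 5 embryonic and neonatal genes and from 7 to 6 of 15 macrophage genes. Metallothionein and glucocorticoid-responsive genes went from 10 to 8 of 14. The share of all features was then 1.409%.

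Tendon genes differed between the RNA samples, and RNA sample 4 was the low one. All 10 detected tendon genes passed the F-test, 9 of them with an SD above 0.5, and without RNA sample 4 none did (limma, 0 of 10, with 1.409% of all features; 6 of 10 had an unadjusted p under 0.05). The median deviation from the gene's mean was 0.25, 0.29 and 0.65 in RNA samples 1 to 3 and -1.24 in RNA sample 4. Scx, the transcription factor of tendon cells, read 3.80, 4.04, 4.56 and 3.39. Comp, a matrix protein of tendon and cartilage, read 4.40, 4.40, 4.82 and 2.90 (adjusted p = 0.01196, limma F-test). Tnmd, tenomodulin, read 1.18, 0.97, 1.36 and -0.25, and Fmod, a collagen-binding proteoglycan, 3.70, 3.70, 3.72 and 2.23. RNA sample 4 lay below the other 3 for each of these genes. Of the 22 matrix and fibroblast genes 8 passed, and without RNA sample 4 it was 0 in limma's F-test, with 10 at an unadjusted p under 0.05. Col1a1 and Col1a2, the chains of type I collagen, read 6.71, 7.07, 7.53 and 5.71, and 8.33, 8.49, 8.92 and 7.16. Dcn, the fibroblast proteoglycan decorin, read 7.17, 6.84, 7.24 and 6.89 and did not pass (adjusted p = 0.1251, limma F-test). The part of tendon or connective tissue content in other low values of RNA sample 4 was not tested. At day 14 on the same slide the median log2 difference of the tendon list from day 0 was -1.16, and 0 of its 11 tested genes passed that comparison in limma, 5 having an unadjusted p under 0.05.

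Macrophage and MHC class II genes read higher in RNA sample 1 than in 2. Of 15 macrophage genes 7 passed the F-test, which compares all 4 RNA samples and not this pair alone. The median of RNA sample 2 minus 1 was -0.65 on slide 2 and -0.73 on slide 1, and RNA sample 2 was the lower of the pair on both slides in 14 of 15 genes, Itgam being the exception. The probe that stood for Itgam read 6.42, against -1.3 and -1.61 for its other probes. Mpeg1, a pore-forming protein of macrophages, read 1.09, -0.47, 0.26 and -0.01, and 1.05 and -0.34 for RNA samples 1 and 2 on slide 1. Of the 8 detected lymphocyte and antigen presentation genes 4 passed, the MHC class II genes H2-Ab1, H2-Aa, H2-Eb1 and Cd74, and these 4 were the only ones of the 8 with the same sign on both slides. H2-Ab1, an MHC class II chain, read 4.23, 3.17, 3.56 and 3.27, and Cd74, its invariant chain, 3.11, 2.05, 2.40 and 1.98, RNA sample 1 being highest for both. Cd3d, Cd3g, Cd8a, Cd79a and Ms4a1, defining T and B cell genes, were detected on no array, while Cd3e, Cd4, Nkg7 and Cd79b, which did not pass, were detected on all 4 at 2.09 ± 0.15, 1.82 ± 0.09, 1.80 ± 0.11 and -1.24 ± 0.49. Cd4 and Nkg7 each had another probe that was detected on no array, at -2.99 and -4.34.

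Most immediate early genes showed the opposite order of that pair. Of 13 detected genes 7 passed, and the median of RNA sample 2 minus 1 was 0.42 on slide 2 and 0.65 on slide 1, with RNA sample 2 the higher of the pair on both slides in 10 of 13 genes and the lower on both in 3, Jun, Atf3 and Maff. Fos read -1.18, 0.88, 0.25 and 0.20, and -1.20 and 0.58 for RNA samples 1 and 2 on slide 1. Nr4a1, an orphan nuclear receptor induced by contraction, read 4.31, 5.67, 5.37 and 5.74. RNA sample 1 was the lowest for both.

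Of 14 metallothionein and glucocorticoid-responsive genes, 10 were lowest in RNA sample 2, 3 in RNA sample 1 (Per1, Sgk1 and Errfi1) and 1 in RNA sample 4 (Mt3). The F-test passed 10, and the median deviation was 0.09, -0.58, 0.00 and 0.45 in RNA samples 1 to 4. Mt1 read 6.83, 5.68, 6.45 and 6.57. Fkbp5, a chaperone of the glucocorticoid receptor, read 2.96, 1.51, 2.85 and 3.25, and 2.52 and 1.15 for RNA samples 1 and 2 on slide 1. Angptl4, a lipoprotein lipase inhibitor, read 3.38, 1.24, 2.33 and 2.96, and Pdk4, which blocks pyruvate entry to mitochondria, 7.56, 7.06, 8.04 and 8.15. RNA sample 2 was the lowest for all 4 genes, whereas Per1, a clock gene that also passed (adjusted p = 0.03187, limma F-test), read 3.45, 4.2, 3.99 and 4.43. Of 15 clock genes 4 passed: Dbp, a clock output factor, read 4.69, 6.12, 5.15 and 4.64 and was highest in RNA sample 2. The time of day of sampling is not given in the labels, and its part in these values was not tested.

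Fast-fibre genes passed in 5 of 16 cases, against 1 of 16 slow-fibre genes, which was Sln (adjusted p = 0.03063, limma F-test). The 5 were Myh4, Myh1, Mybpc2, Actn3 and Pvalb, and Myh4 had the smallest p of all named genes (adjusted p = 0.001001, limma F-test). The difference between these 2 counts was not tested. None of the 65 respiratory chain genes and none of the 51 ribosomal protein genes passed. Their small differences still ran together. Of the respiratory chain genes 55 were highest in RNA sample 4, against 39.7% of all detected genes, with a median deviation of 0.16. Of the ribosomal protein genes 42 were lowest in RNA sample 2, against 25.1% of all, with a median deviation of -0.13. Among the 200 brightest genes 110 were highest in RNA sample 4.

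**Figure D5:**
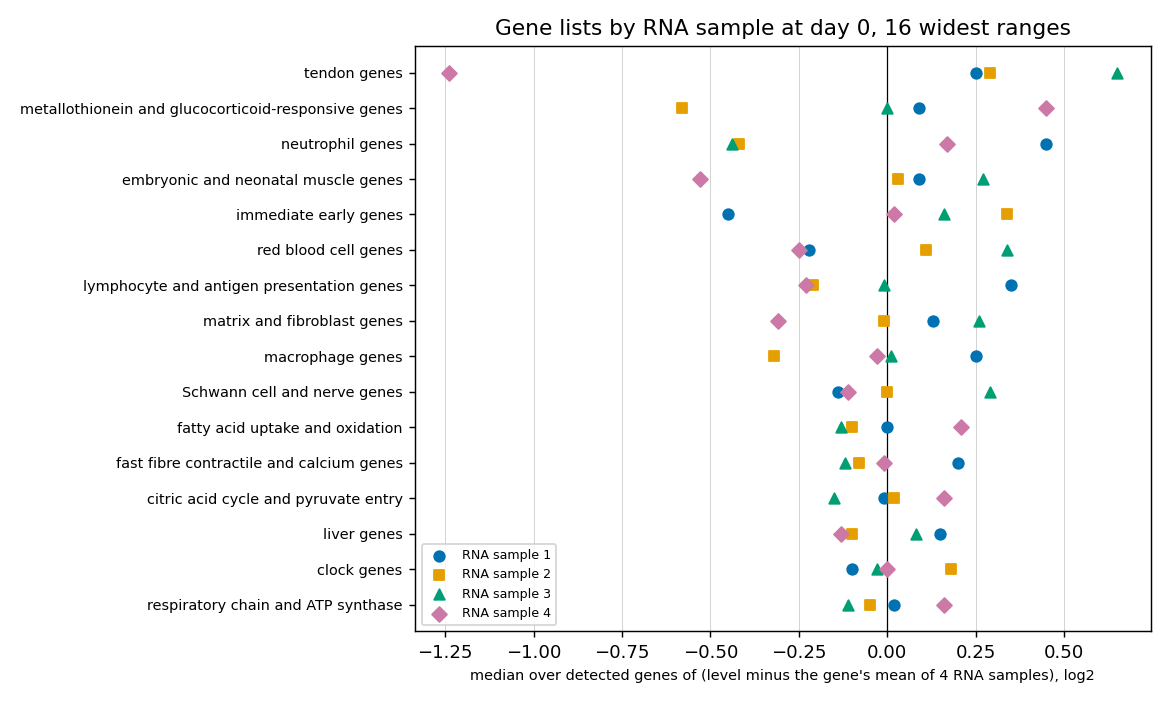
Median over the detected genes of each list of the level minus the gene's own mean over the 4 RNA samples (log2), for the 16 lists with the widest range; each symbol is 1 RNA sample. RNA sample 4 stands at -1.24 for tendon genes, and RNA sample 2 at -0.58 for metallothionein and glucocorticoid-responsive genes.

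The day 14 arrays on the same slide were set against day 0. Limma's moderated test of 4 against 4 RNA samples called 52 of 19222 features (0.271%), 38 of them higher at day 14 (0.198%) and 14 lower (0.0728%), and 4787 at an unadjusted p under 0.05. Of the 200 brightest day 0 genes 1 passed, Hba-a2, which read 11.24, 10.75, 10.60 and 10.61 at day 14, above all 4 day 0 samples (log2 difference 1.42, SE 0.18, adjusted p = 0.03967, limma; 0.00157 to 0.129 over 18 alternatives, passing in 10). The red blood cell list passed in 6 of 8 genes, all higher. The 16 fast-fibre, 16 slow-fibre and 65 respiratory chain genes gave 0 calls. With 0.271% of all features called, 0 calls in lists of this size does not show that their levels stayed the same. Myh4 read 2.60, 4.03, 4.36 and 7.07 at day 14, a spread as wide as at day 0, and its difference was -0.22 (SE 1.12). The count of 52 moved with most single libraries: without any 1 of day 0 RNA samples 1, 2 and 3 they numbered 0, 1 and 3, and without any 1 of day 14 RNA samples 1, 2 and 3 they numbered 0. Without day 0 RNA sample 4 they numbered 82, and without day 14 RNA sample 4 they numbered 50.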

How the data were processed

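Soleus RNA was measured on 1-colour Agilent arrays. Per the file headers, the deposited scanner files come from Agilent Feature Extraction 11.0.1.1 and hold each spot's background-subtracted intensity, with no scaling from one array to the next. The deposited series table is an intensity too. Its scale and steps are not given in the sources used here, and it served as an alternative. From the scanner intensity the log2 was taken, each array's 75th percentile of non-control spots was subtracted, and the spots of a probe were averaged. Outlier spots were dropped, and the 37 probes then short of a value on some array were not used. RefSeq transcripts gave names to 27656 of 55681 probes, and the probe with the highest mean over all arrays stood for its gene, so the spread between samples played no part in that choice. No spot was saturated. The number of arrays limits the precision.

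Tests used limma 3.58.1 in R 4.3.3, checked on simulated data: of features changed by 1 log2 unit it recovered 98% in the F-test between RNA samples (17037 features) and 99% for day 14 (19222 features). Among unchanged features it made 0 calls in the F-test and 15 for day 14. The simulated noise was drawn independently for each array around a set size. For the F-test that size was below the technical SD fitted to many measured features. The shares may therefore be too favourable for the measured data. They also need not hold for genes with a wide spread between RNA samples, such as Myh4. Tables and figures used pandas and Matplotlib. The genes named are a selection of the 25 brightest, the 15 with the largest SD, the 6 with the smallest p, the brightest and widest of 41 lists, core muscle genes, and the brightest genes called at day 14. Others, such as Dcn, Fmod, Tnmd, Chchd10, Mt1, Fkbp5, Per1, Jun and Cd3d, and the members of the liver, heart, neuron and keratinocyte lists, were named after their values were seen. Members, lists and rule were chosen with earlier results of these data known. Alternatives covered background correction, scaling, probes per gene, filters, slides and left-out samples.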

Additional observations from a re-analysis of the deposited data

Results flagged for a closer look

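In 163 sets of 4 day 0 values (122 genes and 41 list medians), 8 had 1 RNA sample far from the other 3, by Dixon's test at its critical value for 4 samples; chance gives about 1 in 20. Fmod, a tendon proteoglycan, stood at 2.23 in RNA sample 4 against 3.70 to 3.72 in the others. Car3 stood at 7.92 in RNA sample 3 against 7.72 to 7.74. Fabp3 stood at 9.60 in RNA sample 3 against 9.77 to 9.79, and Hspb6, a small heat shock protein, at 9.37 in RNA sample 3 against 9.67 to 9.72. Mup2, a major urinary protein, stood at -0.64 in RNA sample 3 against -1.29 to -1.18. The median deviation of the oxygen-binding and carbon dioxide list was -0.16 in RNA sample 3. That of the neuron list, which rests on 2 detected genes, was -0.08 in RNA sample 4. That of the cell cycle list was -0.09 in RNA sample 1. Apart from Fmod, Hspb6 and Mup2, these gaps are below 0.25 log2 units.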

How the results depend on the processing

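The count of detected genes stayed within 11051 to 12745 under every filter and left-out sample tried (11084 to 11314 without 1 sample). Of the 25 brightest genes, 23 to 25 were shared under each scaling, with slide 1 arrays and without 1 sample, but 16 when probes were averaged and 15 with only agreeing probes, a setting chosen after seeing the data. The median SD of 0.141 was 0.104 with normexp and 0.118 to 0.141 without 1 sample, and 0.131 to 0.156 otherwise. The F-test count of 557 between RNA samples became 2314 with normexp, 1 with quantile normalization, 177 with median scaling, 250 with averaged probes, 0 with detection on at least 3 of 6 arrays (3294 at an unadjusted p under 0.05, limma) and 4100 with an intensity trend. Without day 0 RNA sample 3 or 4 it was 569 and 240, and the deposited table gave 792. Of 420 repeats of the 42 named calls, 306 passed again. Without RNA sample 1 or 2 no residual was left, so that test was not run.

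The day 14 count of 52 became 1220 with normexp, 412 with the deposited table, 8 with all probes, 821 with detection on all 8 arrays, 1518 with an intensity trend, 304 with all 16 arrays and 0 to 82 without 1 sample. With the replicate block it was 0 (4167 at an unadjusted p under 0.05, limma). Same-numbered day 0 and day 14 deviations correlated weakly, at 0.04, 0.02, 0.11 and 0.12. Those of different number correlated at -0.14 to 0.04. These values do not settle whether equal numbers pair the samples. The causes of the shifts in the count were not tested. Levels of named genes moved by more than their SD in 156 of 976 repeats (72 with normexp, 67 with averaged probes, 14 with quantile normalization and the rest without 1 sample), and list medians in 71 of 369; no direction reversed. The files hold no mean spot signal, so normexp used the median signal. Dim probes limit the lower end: genes detected on no array have no level here.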

Other observations

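Stress and housekeeping genes added to the baseline. All 19 measured heat shock genes were detected, 5 among the 200 brightest, at a median level of 5.73. They were led by Cryab, the small chaperone alpha-B crystallin, at 10.33, 10.37, 9.97 and 10.12 in RNA samples 1 to 4, and Hspb6, another small heat shock protein, at 9.67, 9.71, 9.37 and 9.72, RNA sample 3 being lowest for both. All 14 reference genes were detected with a median SD of 0.13. Actb, cytoplasmic actin, read 8.04, 8.25, 8.23 and 7.77. The smallest SD belonged to Iws1, a transcription elongation factor, at -0.35, -0.34, -0.35 and -0.35. Another Iws1 probe stood at -3.63 and was detected on no array.

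Cell cycle genes were at the low end. Of 16, 7 were detected, at a median of -0.90, while Top2a, Cdk1, Bub1, Aurkb and Mcm5 were well above background on no array. Pcna, the replication clamp, read 2.33, 2.57, 2.42 and 2.36. Of 14 interferon-stimulated genes 12 were detected, at a median of 0.00, with Isg15, a ubiquitin-like protein, at 1.47, 1.80, 1.80 and 1.92.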
